A study of Homo sapiens with 12 samples.

Results

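The second hour of transcription block was examined in A673 cells by comparing RNA taken after 2 h of 5 µM actinomycin D with RNA taken after 1 h. The comparison used 6 of the 12 libraries of the series, chosen by their time labels, with 3 replicates at each time that were paired by replicate number. Genes were tested if their counts averaged 10 or more across all 12 libraries, which left 12032 of the 26334 gene symbols in the table. A further 7397 symbols were at 0 throughout. A673 is an established Ewing sarcoma line, and the samples are labelled shA673-1c. Cells of every group, 0 h included, carried the short hairpin construct under blasticidin and zeocin selection, and the labels do not state its target. The groups were actinomycin D for 0, 1, 2 and 4 h, with 3 biological replicates each. The library kit selects poly(A) RNA and keeps strand, so that the values are levels of polyadenylated RNA and a transcript that loses its tail counts as lost.

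Actinomycin D intercalates into DNA and stops RNA polymerases, after which the level of a transcript falls as it decays. Short-lived transcripts often encode regulators such as immediate early transcription factors, phosphatases that restrain ERK signaling and zinc finger proteins, and many carry AU-rich elements in the 3′ UTR. These elements contain the pentamer ATTTA, often within the longer TTATTTATT, and are bound by proteins of the ZFP36 family, which recruit the deadenylase complex. Transcripts of ribosomal proteins, glycolytic enzymes and respiratory chain subunits are long-lived. Because each library was scaled to the others, a transcript that is lost more slowly than the average rises in these data.

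Library totals ranged from 9147018 to 11194705 counts. Sampling noise alone did not account for the distance between replicates, as chi-square divided by its degrees of freedom was 3.2 at the lowest and 8.65 at the highest over 12 replicate pairs. Of 16 genes fixed as marks of Ewing sarcoma, 13 reached a mean of 10 counts, among them FLI1, NR0B1 and NKX2-2, whereas CD99, the usual surface marker, was listed at 0 in all 12 libraries. Their summed level was 1908 to 2200.01 CPM (counts scaled to a common library size, with TMM-adjusted totals) at 1 h and 2033 to 2315 CPM at 2 h. Much of this sum came from JAK1 and EWSR1, with means of 770 and 318 CPM at 0 h. FLI1, NR0B1 and NKX2-2 had 80, 38.1 and 7.08 CPM at that time. None of the 6 endothelial markers reached a mean of 10 counts, and PTPRC, which marks leukocytes, had at most 3 counts in a library, with CD3E at 0, whereas CD68, listed with them, had 95 to 144 counts in each library. Of the 5 epithelial markers, KRT8 and KRT18 were above that minimum, and CDH1 and KRT19 had at most 1 count. KRT18 had 232 to 379 CPM in each library, and the summed epithelial level was 275 to 394 CPM at 1 h and 247 to 383 CPM at 2 h.

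Several of the genes that fell furthest have AU-rich elements in the 3′ UTR, and a window of 30 bases around the first copy is shown for 5 of them because their levels are followed below. Sequences and positions are those of GENCODE 44 on GRCh38, whereas the submitters' notes name hg19. The motif is in capitals, and the first 3 windows hold TTATTTATT.
PLK2, chr5:58454065-58454094, minus strand: aataaactttTTATTTATTacagcccaaag
CSRNP1, chr3:39142884-39142913, minus strand: ttctctggatTTATTTATTtgttttaactt
IER5, chr1:181092443-181092472, plus strand: gtgtcttcctTTATTTATTtatttatttaa
NFKBIA, chr14:35401909-35401938, minus strand: aaagaagaaaaaATTTAaagggtgtactta
CITED2, chr6:139372726-139372755, minus strand: aactgcattcagATTTAcgagtgaaaggaa
TTATTTATT occurs 3 times in the 3′ UTR of IER5, with overlaps counted, and 1 time each in those of PLK2 and CSRNP1, and ATTTA occurs 3 times each in NFKBIA and CITED2. Over the 11376 tested genes with an annotated 3′ UTR, 10.1% held TTATTTATT and 74.9% held ATTTA, so the shorter motif alone is common. All motifs were searched on the strand of the transcript.

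Over the second hour, short-lived regulatory transcripts fell steeply, while transcripts of ribosomal proteins and energy metabolism rose by small amounts relative to the rest. Of the 12032 genes, 2485 were lower at 2 h than at 1 h (20.7%) and 2048 were higher (17%), at an adjusted p below 0.05 in edgeR's quasi-likelihood test. Falls were larger than rises: the median log2 fold change was -0.46 among genes that fell and 0.18 among those that rose. A fall to less than 50% was seen for 356 genes and a fall to less than 25% for 29, whereas 3 genes more than doubled. The log2 change over all genes had a median of 0.01, with 5% of genes below -0.78 and 5% above 0.27. The split between falls and rises depended on the scaling. When libraries were scaled to GAPDH plus ACTB, the median of all genes moved by -0.13, 3996 genes were lower and 242 were higher, so that the share of lower genes among those called went from 54.8% to 94.3%, and with library totals it was 75.3% (3081 lower and 1010 higher). All changes below are therefore relative to the bulk of transcripts. The count of higher genes was also 1364 without replicate 2 and 1330 without replicate 3, and without the replicate block 1504 genes were lower and 452 higher.

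**Figure D1:**
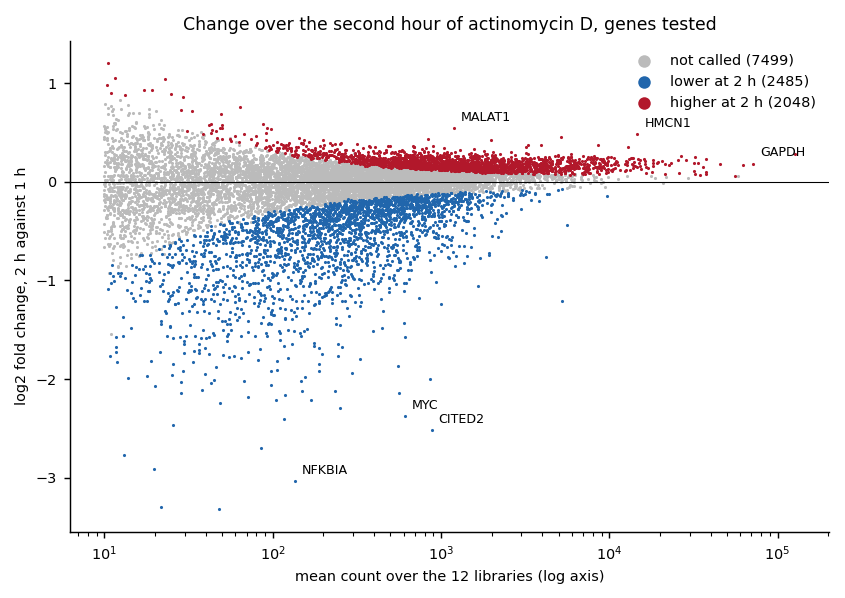
Log2 fold change from 1 to 2 h for 12032 genes (vertical axis) against the mean count over the 12 libraries (log axis), 1 point per gene, with 2485 genes called lower in blue, 2048 called higher in red and the rest in gray. Falls reach beyond -3 and are spread over low and middle counts, whereas rises at high counts stay small, as for GAPDH at 0.18.

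NFKBIA, the inhibitor that holds NF-κB in the cytoplasm, had the largest fall among genes that averaged 50 counts or more and moved the same way in all 3 pairs. Its level was 15.6, 15.4 and 12.4 CPM in replicates 1, 2 and 3 at 1 h and 2.28, 1.92 and 1.06 CPM at 2 h. At 2 h 12.2% of the 1 h level was left (log2 fold change -3.04 ± 0.17, SE from edgeR, n = 3 pairs, adjusted p = 6.26e-15). All 3 libraries at 2 h lay far below all 3 at 1 h.

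CITED2, which binds the coactivators CBP and p300, had 111, 118 and 108 CPM at 1 h and 22.6, 21.1 and 15.3 CPM at 2 h. This was a log2 fold change of -2.52 ± 0.08 (SE, adjusted p = 5.61e-21) at a mean of 879 counts, the highest count among the 12 largest falls and the smallest error. MYC, the growth-promoting transcription factor, went from 80.6, 83.8 and 61.6 CPM to 17.9, 16 and 9.86 CPM (log2 fold change -2.37 ± 0.09, SE). Replicate 3 was the lowest of the 3 for MYC at both times, yet the groups did not overlap.

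DUSP6, a phosphatase that switches off ERK, was at 56.5, 54.6 and 43 CPM at 1 h and at 14.6, 11.6 and 8.6 CPM at 2 h (log2 fold change -2.15 ± 0.09, SE). The Notch-responsive repressor HES1 went from 14.3, 18.4 and 10.7 CPM to 3.77, 3.84 and 1.74 CPM (-2.21 ± 0.20, SE). The 3 genes shown above with TTATTTATT all fell. PLK2, a polo-like kinase, had 19.9, 13.6 and 7.25 CPM at 1 h and 3.87, 3.14 and 1.74 CPM at 2 h, and its replicates differed in level at both times but not in the direction of change. CSRNP1, a nuclear transcription factor, went from 11.3, 11 and 5.44 CPM to 2.08, 2.02 and 1.93 CPM, and IER5, an immediate early response gene, from 28.1, 31.3 and 25.8 CPM to 6.05, 8.7 and 4.93 CPM. Their log2 fold changes were -2.21 ± 0.14, -2.18 ± 0.20 and -2.12 ± 0.11 (SE).

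The other members of the 12 largest falls were ZNF627 at -2.70, the pseudokinase gene TRIB1 at -2.40, C15orf39 at -2.30 and ZNF574 at -2.16, all log2 fold changes. All 12 fell with an adjusted p of 3.96e-10 or less. ZNF627 had 11.9, 12.1 and 7.89 CPM at 1 h and 1.39, 2.23 and 1.26 CPM at 2 h, although its annotated 3′ UTR holds no ATTTA, and the same is true of HES1.

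The rises were smaller and came with larger errors for their size. MALAT1, an abundant nuclear long noncoding RNA (chr11:65497640-65508073 in GRCh38, plus strand, 1 exon), had 58.4, 77.3 and 88.9 CPM at 1 h and 90.6, 111 and 126 CPM at 2 h (log2 fold change 0.55 ± 0.10, SE, adjusted p = 3.79e-05). Each library at 2 h was above its partner at 1 h, and all 3 were above the highest value at 1 h. HMCN1, which encodes the extracellular matrix protein hemicentin (chr1:185734391-186190949, plus strand, 107 exons), went from 1162, 1243 and 1148 CPM to 1647, 1672 and 1644 CPM. This rise of 0.48 ± 0.08 on the log2 scale (SE, adjusted p = 6.82e-06) had the highest counts of the 12 largest rises, with a mean of 14718. At 0 h HMCN1 had ranged from 972 to 1573 CPM, a wider spread than at 1 or 2 h.

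KCNQ1OT1, an imprinted long noncoding RNA antisense to KCNQ1, had the largest rise under the same rule, from 4.5, 3.43 and 3.63 CPM to 7.44, 6.68 and 5.51 CPM (0.76 ± 0.26, SE, adjusted p = 0.02). Whether counting used strand is not known, so its reads cannot be told apart from those of its partner. The remaining rises were between 0.46 and 0.58 on the log2 scale and included FBXO4 (a ubiquitin ligase adaptor, 0.58), PRKAR2B (a regulatory subunit of protein kinase A, 0.55), NMB (neuromedin B, 0.55), FAR2 (a fatty acyl-CoA reductase, 0.48), POLD4 (a subunit of DNA polymerase delta, 0.47) and GGT7 (0.46). ANKRD36 (0.58), ANKRD36C (0.54) and SULT1A1 (0.50) have near-identical paralogs, and their values are uncertain to that extent. The groups overlapped for FAR2, NMB and SULT1A1. In FAR2 the lowest level at 2 h, 5.66 CPM, was below the highest at 1 h, 6.41 CPM. When 1 replicate was left out, 8 of the 12 rises lost the threshold, with adjusted p from 0.0512 to 0.293. These were KCNQ1OT1, ANKRD36, FBXO4, NMB, ANKRD36C, FAR2 and POLD4 without replicate 3, KCNQ1OT1, NMB and GGT7 without replicate 2, and FAR2, POLD4 and GGT7 without replicate 1.

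**Figure D2:**
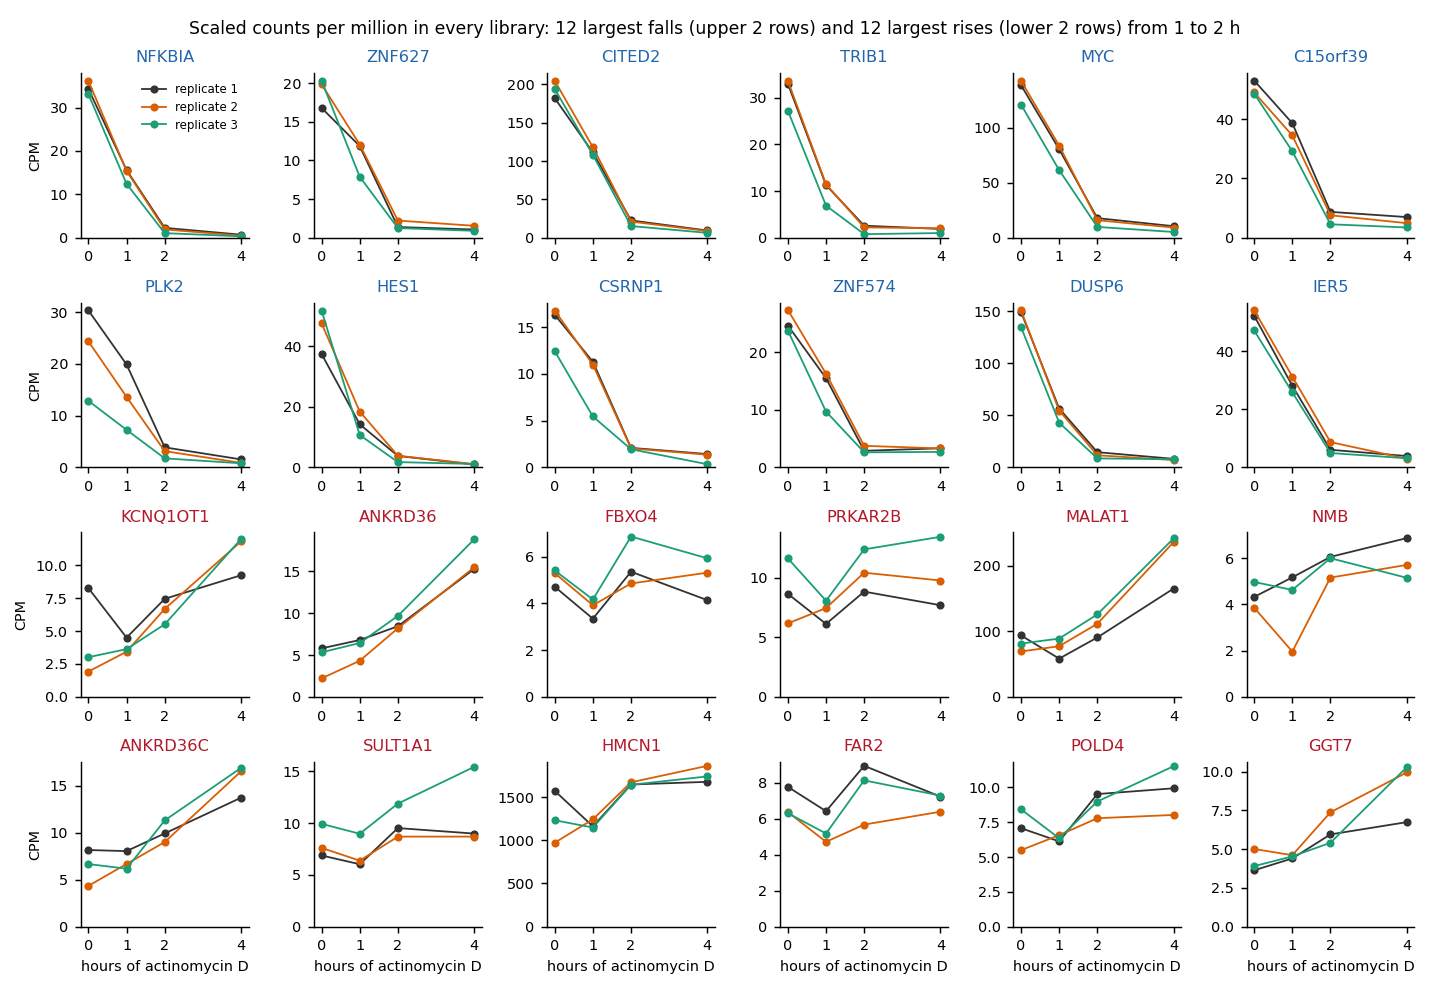
Scaled CPM (vertical axes, from 0) in each of the 12 libraries against hours of actinomycin D, 1 line per replicate, for the 12 largest falls (blue titles) and the 12 largest rises (red titles) from 1 to 2 h. In every falling gene the 3 libraries at 2 h lie below the 3 at 1 h, while rising genes such as FAR2 show replicates that overlap.

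Genes listed as immediate early transcription factors were lower as a group. Factors of this kind are induced within minutes by growth factors and are known for short-lived RNA. The list also holds HES1, described above as Notch-responsive, and SOX4 and SNAI2, so it is broader than its name. Of 38 listed genes 32 were tested, and 27 fell while none rose, against 20.7% lower and 17% higher over all genes. Their median log2 fold change was -1.21, and 0.01 over all genes. JUN went from 25.8, 23.4 and 13.9 CPM to 6.75, 6.27 and 3.67 CPM (-1.91 ± 0.12, SE) and IER2 from 36.5, 31.6 and 28.8 CPM to 9.72, 8.4 and 7.15 CPM (-1.94 ± 0.09, SE). EGR1 fell less far, from 6.31, 6.28 and 5.44 CPM to 3.08, 2.93 and 2.51 CPM (-1.08 ± 0.19, SE). Of the KLF zinc finger factors, KLF2, KLF4, KLF5, KLF6, KLF10 and KLF11 fell, with log2 fold changes from -1.58 in KLF2 to -0.97 in KLF4. The 5 tested members that did not pass were FOSB, NR4A1, ATF3, MAFF and SRF. SRF, the serum response factor that drives several of the others, had 63.3, 55.4 and 43.6 CPM at 1 h and 56, 54 and 43.1 CPM at 2 h, and these values overlapped.

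Feedback regulators of signaling behaved similarly. In a list of ERK feedback genes, 14 of 17 tested fell and none rose (median -0.74). Besides DUSP, SPRY and SPRED genes the list holds ETV4, ETV5 and PHLDA1, so not all of its members restrain ERK. They included the phosphatase genes DUSP6, DUSP1 (-2.01), DUSP2 (-1.95) and DUSP5 (-1.69), the Sprouty genes SPRY2 (-1.72) and SPRY4 (-0.93), and SPRED1 and SPRED2 (-0.42 and -0.74). ETV4 and DUSP14 were among those that did not pass, with log2 fold changes of 0.07 ± 0.09 and -0.05 ± 0.09 (SE). All 14 tested genes of TGF-β and BMP feedback fell (median -0.84). BAMBI, a decoy receptor, had the largest change, from 15.6, 17.3 and 10.9 CPM to 3.97, 3.34 and 4.25 CPM (-1.90 ± 0.15, SE). ID1, ID2, ID3 and ID4, dominant-negative helix-loop-helix proteins, fell by between 0.79 and 1.01 on the log2 scale, and the inhibitory SMAD genes SMAD7 and SMAD6 by 1.21 and 0.54.

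Genes of the integrated stress response were split. Of 16 tested, 10 fell and 1 rose (median -0.57). CHAC1, a glutathione-degrading enzyme, had 3.54, 2.84 and 2.72 CPM at 1 h and 0.298, 0.202 and 0.387 CPM at 2 h, so the fitted log2 fold change of -3.30 ± 0.38 (SE) rests on few counts (mean 21.8). DDIT4, an inhibitor of mTORC1, fell by 2.24, and CEBPB, DDIT3 and the phosphatase subunits PPP1R15A and PPP1R15B fell by 1.43, 1.00, 1.07 and 0.69. ATF4, the central transcription factor of the pathway, had 218, 214 and 268 CPM at 1 h and 219, 204 and 279 CPM at 2 h (0.00 ± 0.04, SE), and its target ASNS did not pass either (0.03 ± 0.04, SE). The member that rose was EIF2AK4, an eIF2α kinase (0.11 ± 0.04, SE), whose value turned to -0.0138 with GAPDH plus ACTB scaling, and no member rose without replicate 2 or without replicate 3.

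Among p53 target genes 8 of 17 fell and 1 rose (median -0.25). PLK2, GADD45B (-1.98), the phosphatase gene PPM1D (-1.51) and BTG2 (-1.16) had the largest falls. MDM2, which targets p53 for degradation, fell by 0.25. CDKN1A, the CDK inhibitor p21, had 30.2, 25.3 and 23.8 CPM at 1 h and 31.4, 26.3 and 24.6 CPM at 2 h (0.05 ± 0.08, SE), and BAX rose by 0.16 ± 0.06 (SE), a call lost when any 1 replicate was left out.

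The BCL2 family, which decides on mitochondrial apoptosis, had 4 of 14 lower and 4 higher (28.6% each). Over all genes 20.7% were lower and 17% higher, and with 14 genes tested the family is near these shares. Scaling to GAPDH plus ACTB gave 7 lower and 0 higher. The higher count rested on all replicates, being 2 without replicate 1, 2 without replicate 2 and 1 without replicate 3, whereas 4 genes were lower each time. MCL1, a short-lived survival factor, went from 208, 208 and 185 CPM to 100.4, 93.1 and 94.5 CPM (-1.06 ± 0.05, SE, adjusted p = 1.04e-15). The pro-apoptotic BH3-only genes BMF and BCL2L11 fell by 1.03 and 0.60, and the survival factor BCL2L1 by 0.29. BAD, BCL2L12, BAX and BID rose by 0.38, 0.22, 0.16 and 0.14. No difference was detectable for BCL2 (-0.21 ± 0.12, SE).

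**Figure D3:**
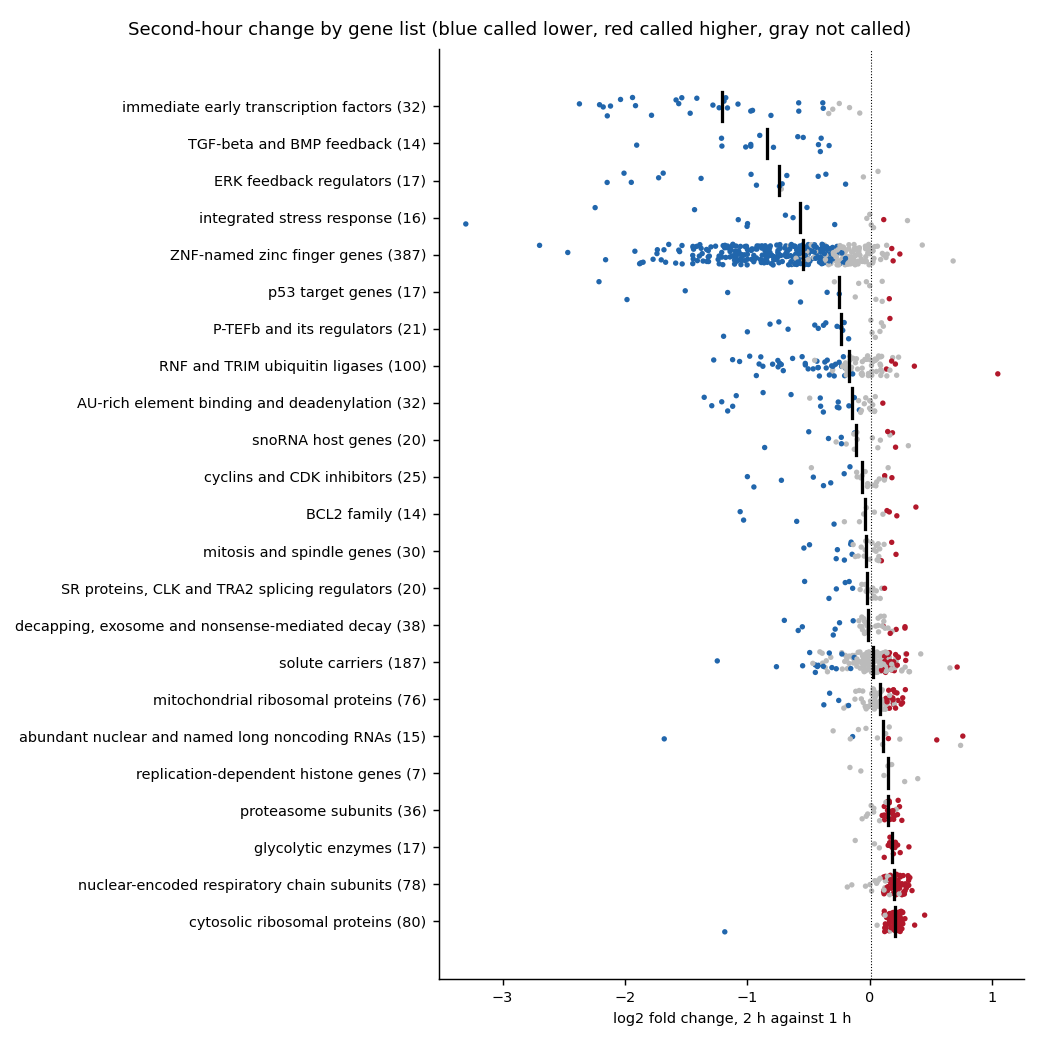
Log2 fold change from 1 to 2 h of each tested member (points) of 23 gene lists (rows, number tested in parentheses), with the list median as a black bar and the median of all genes as a dotted line. Medians run from -1.21 for immediate early transcription factors to 0.21 for cytosolic ribosomal proteins, and single members reach -3.30.

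Zinc finger genes, the largest of the 23 lists, gave the highest number of falling transcripts among them. By share they were below TGF-β and BMP feedback (100%), immediate early factors (84.4%) and ERK feedback (82.4%). Of 387 tested genes whose symbol begins with ZNF, 270 fell (69.8%) and 3 rose, with a median log2 fold change of -0.55 and 366 values below 0. The lowest was ZNF627 and the next ZNF14 at -2.47 ± 0.37 (SE), whose levels at 2 h were 0.397, 0.405 and 0.387 CPM. The 3 that rose were ZNF664, ZNF106 and ZNF185, by 0.18, 0.19 and 0.25. Many ZNF genes lie in clusters of related sequence, and how reads matching several of them were counted is not known. Ubiquitin ligases of the RNF and TRIM families fell in 40 of 100 cases and rose in 5 (median -0.17). TRIM13 went from 15.6, 18.9 and 16.3 CPM to 4.86, 8.4 and 7.73 CPM (-1.27 ± 0.15, SE). RNF157 rose by 1.05 ± 0.23 (SE) at a mean of 23.1 counts.

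Regulators of transcription elongation were lower too. For P-TEFb, the kinase that releases paused RNA polymerase II, and its regulators, 14 of 21 fell and 1 rose (median -0.24). ELL, an elongation factor, fell by 1.19 ± 0.13 and CCNT1, the cyclin subunit, by 1.00 ± 0.07, from 68, 70 and 57.2 CPM to 32.6, 33.4 and 31.4 CPM. The methylphosphate capping enzyme of 7SK, MEPCE, fell by 0.81 ± 0.07, HEXIM1, which inhibits P-TEFb, by 0.42 ± 0.07, and the kinase gene CDK9 by 0.22 ± 0.06 (all SE). Subunits of the NELF complex did not move together. NELFA fell by 0.27 ± 0.08, NELFE rose by 0.16 ± 0.05 (SE), and NELFB and NELFCD did not pass. The rise of NELFE was lost without replicate 3.

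Among proteins that bind AU-rich elements or shorten poly(A) tails, 17 of 32 fell and 1 rose (median -0.15), and scaling to GAPDH plus ACTB gave 26 and 0. Of the ZFP36 family, ZFP36L2 fell by 1.12 ± 0.12 and ZFP36L1 by 0.87 ± 0.07 (SE), and ZFP36 itself was at 1.72, 1.28 and 2.27 CPM and then at 1.29, 0.91 and 1.55 CPM, which did not pass. The antiproliferative adaptors BTG1, TOB1, BTG2 and TOB2, which bind the deadenylase, fell by 1.35, 1.29, 1.16 and 1.09. PUM2, which binds 3′ UTRs, fell by 0.40. CNOT4 fell by 1.21 ± 0.11 (SE), whereas the scaffold gene CNOT1 rose by 0.11 ± 0.03 (SE, and -0.0211 with GAPDH plus ACTB scaling) and the catalytic subunit genes CNOT7 and CNOT6 did not pass. The rise of CNOT1 was lost without replicate 1 and without replicate 3. ELAVL1, HNRNPD, TIA1 and PABPC1 did not pass either, with log2 fold changes between -0.01 and 0.04.

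Decapping, exosome and nonsense-mediated decay factors were near the background, with 7 of 38 lower and 5 higher. The count of lower genes was 4 without replicate 1 and 3 without replicate 2. SMG8 and the decapping cofactor gene DCP1A fell by 0.70 ± 0.09 and 0.58 ± 0.10, and the exonuclease gene XRN1 rose by 0.29 ± 0.06 (SE). SR proteins and CLK kinases, which regulate splicing, had 6 of 20 lower and 1 higher, led by CLK1 at -0.53 ± 0.09 (SE), and 0 higher without replicate 3. Cyclins and CDK inhibitors had 8 of 25 lower and 2 higher (0 without replicate 2 and without replicate 3), and mitosis and spindle genes 8 of 30 lower and 3 higher. Shares lower were 18.4% (decay), 30% (splicing), 32% (cyclins) and 26.7% (mitosis), against 20.7% over all genes. Shares higher were 13.2%, 5%, 8% and 10% in that order, against 17%. CCNF fell by 0.95 ± 0.07, CDKN1B by 0.72 ± 0.09, KIF18A by 0.54 ± 0.05 and the kinase gene AURKA by 0.49 ± 0.06 (all SE), whereas CCND1 had 0.06 ± 0.03 and CCNB1 -0.04 ± 0.04 (SE), which did not pass.

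Transcripts of basic cellular machinery rose relative to the rest. Of 80 tested cytosolic ribosomal protein genes 75 rose and 1 fell (median 0.21). RPS27 went from 253, 287 and 279 CPM to 299, 352 and 348 CPM (0.29 ± 0.03, SE) and RPL39 from 37.3, 42.8 and 40.3 CPM to 45.3, 57.3 and 52.7 CPM (0.37 ± 0.07, SE). The largest rise was that of the paralog RPL39L (0.45 ± 0.11, SE). The 1 gene that fell, RPL36A, had only 42.8 counts on average and is known to be read through into a neighboring gene and to have a paralog, so its value of -1.18 ± 0.21 (SE) is uncertain. With GAPDH plus ACTB scaling, 39 of these genes rose, 1 fell and the median was 0.08.

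Nuclear-encoded subunits of the respiratory chain rose in 59 of 78 cases and fell in none (median 0.20). NDUFC2, of complex I, went from 29.5, 30.1 and 27.2 CPM to 38.4, 37.9 and 33.9 CPM (0.35 ± 0.07, SE), and COX6C, of complex IV, rose by 0.33 ± 0.06 (SE). Of 17 glycolytic enzymes 14 rose and none fell (median 0.18). GAPDH was at 6629, 6181 and 6337 CPM at 1 h and at 7467, 6965 and 7331 CPM at 2 h (0.18 ± 0.02, SE, adjusted p = 2.46e-08). ACTB, the β-actin gene, did not pass, with 5924, 5812 and 4832 CPM and then 6225, 6069 and 4960.3 CPM (0.06 ± 0.02, SE, adjusted p = 0.057). Its direction turned under library totals and under GAPDH plus ACTB scaling. ACTB is part of that reference and has a smaller change than GAPDH, so its turn there follows from the scaling. Proteasome subunits rose in 25 of 36 cases and fell in none (median 0.15), led by PSMA6, from 177, 174 and 178 CPM to 207, 208 and 219 CPM (0.26 ± 0.04, SE). With GAPDH plus ACTB scaling the numbers that rose and fell were 19 and 1 for the respiratory chain, 6 and 1 for glycolysis, and 3 and 4 for the proteasome. GAPDH is both part of this reference and a member of the glycolysis list.

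Mitochondrial ribosomal proteins were less uniform, with 21 of 76 higher and 4 lower (median 0.08, and -0.05 with GAPDH plus ACTB scaling). The count of higher genes was 13 without replicate 1 and 13 without replicate 2, and 2 were lower without replicate 2. MRPL10 fell by 0.38 ± 0.09 and MRPS11 rose by 0.29 ± 0.07 (SE). Solute carriers, a broad family of membrane transporters, had 25 of 187 higher (13.4%) and 15 lower (8.02%), both below the shares over all genes, and the higher count was 12 without replicate 2 and 14 without replicate 3. SLC38A2, an amino acid transporter induced by starvation, was among the 15 that fell, from 525, 533 and 510.3 CPM to 309, 308 and 307 CPM (-0.76 ± 0.04, SE, adjusted p = 2.92e-15). None of the 7 tested replication-dependent histone genes passed, and most histone transcripts lack the poly(A) tail these libraries select. Genes encoded by mitochondrial DNA were not among the symbols of the table.

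Of 280 long noncoding RNAs tested, 23 were lower and 13 higher, and of 11385 protein-coding genes 2430 were lower and 2022 higher. Over all genes the shares were 20.7% lower and 17% higher. Both shares of the long noncoding RNAs lay below these, and those of the protein-coding genes were close to them. The difference between these classes, and the part of depth in it, was not tested. Among 15 named ones, 2 fell (13.3%) and 3 rose (20%), against 20.7% and 17% over all genes. Of these 15, 1 rose without replicate 2, and 1 fell when any 1 replicate was left out. The host transcript of the miR-17 cluster, MIR17HG, fell to 0.198, 0.202 and 0.193 CPM at 2 h (-1.68 ± 0.59, SE) from 1.05, 0.294 and 0.635 CPM, at few counts. LINC00657 fell by 0.14 ± 0.04 and OIP5-AS1 rose by 0.15 ± 0.05 (SE). NEAT1, the scaffold of paraspeckles, had 63.1, 53.1 and 78.4 CPM at 1 h and 76.8, 57.1 and 79.1 CPM at 2 h and did not pass. Of 20 tested host genes of small nucleolar RNAs, 6 fell (30%) and 3 rose (15%), with a median of -0.12, and 3 fell without replicate 1. SNHG12 had the largest fall (-0.86 ± 0.14, SE), GAS5 fell by 0.12 ± 0.04, and SNHG5, SNHG6 and ZFAS1 rose by 0.19, 0.21 and 0.15.

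The second hour was then set against the first. From 0 to 1 h 1261 genes fell (10.5%) and 744 rose (6.18%). These counts were 908 and 338 without replicate 2, 657 and 385 without replicate 3, 4444 and 165 with GAPDH plus ACTB scaling, and 269 and 42 without the replicate block. The change from 1 to 2 h was below that from 0 to 1 h for 818 genes (6.8%) and above it for 504 (4.19%), by a test of the difference itself in the same fit. CITED2 kept 58.1% of its level over the first hour (182, 205 and 194 CPM at 0 h) and 17.5% of the remainder over the second, a difference of -1.73 ± 0.11 on the log2 scale (SE, adjusted p = 1.28e-11). NFKBIA kept 41.8% and then 12.2%, MYC 55.7% and 19.3%, ZNF627 55.4% and 15.4%, and C15orf39 67.6% and 20.4%. PHF13, a reader of histone methylation, was at 24.9, 29.2 and 26.8 CPM at 0 h, at 21.8, 20.8 and 20.9 CPM at 1 h and at 5.75, 6.27 and 3.67 CPM at 2 h. It thus kept 78.5% over the first hour and 24.6% over the second. EGR1 kept a like share in both hours (difference 0.06 ± 0.29, SE).

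Of the 6 genes named at the other end, DNM3OS and MIR22HG had log2 fold changes further below 0 in the first hour than in the second, while the values of the other 4 were below 0 in the first hour and above 0 in the second. DNM3OS, a noncoding transcript antisense to DNM3, went from 15.6, 14.5 and 17.3 CPM at 0 h to 3.25, 3.83 and 8.61 CPM at 1 h and 3.67, 3.64 and 4.54 CPM at 2 h, and replicate 3 stood apart at 1 h. Its second-hour change was -0.41 ± 0.21 (SE) and turned to 0.04 without replicate 3. MIR22HG, the host of miR-22, kept 29.3% over the first hour and 51.6% over the second. EIF5A2, a translation factor, was at 16.2, 15.2 and 16.2 CPM, then at 13, 11.3 and 12.9 CPM and then at 16.1, 16.1 and 17.8 CPM, so that the dip at 1 h was the low point in each replicate. FBXO4, PRKAR2B and FAR2 also had positive differences, of 1.01 ± 0.29, 0.84 ± 0.25 and 0.81 ± 0.25 (SE). Among the lists, the second-hour change was below the first-hour change for 12 of 32 immediate early factors, 12 of 32 AU-rich element binding or deadenylation genes and 64 of 387 ZNF genes, and above it for 50 of 80 ribosomal protein genes, 21 of 78 respiratory chain genes, 12 of 36 proteasome genes and 6 of 20 snoRNA host genes. Over the first hour the ribosomal protein and respiratory chain lists had medians of 0.01 and 0.02, with 3 and 0 genes that fell and 8 and 3 that rose. Under GAPDH plus ACTB scaling these first-hour medians were -0.11 and -0.10, with 47 and 30 genes that fell and 0 that rose. The list counts of the second hour against the first depended on single replicates. Without replicate 1 they were 9, 8, 38, 41, 14, 9 and 2 in the same order, without replicate 2 they were 6, 7, 18, 16, 2, 1 and 1, and without replicate 3 they were 11, 5, 34, 21, 4, 1 and 2. Without the replicate block 1 ZNF gene and none of the others was past the threshold. Without replicate 2 the counts over all genes were 336 below and 121 above, without replicate 3 they were 448 and 92, and without the replicate block 21 and 0.

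From 2 to 4 h 3046 genes fell and 3050 rose (25.3% each), against 3921 and 1811 with library totals, 7343 and 130 with GAPDH plus ACTB scaling, and 2199 and 1449 without the replicate block. The change per hour in that window was above that of the second hour for 664 genes (5.52%) and below it for 207 (1.72%). The falls of MYC and CITED2 slowed. MYC reached 10.5, 9.28 and 5.26 CPM at 4 h and CITED2 9.47, 8.8 and 6.38 CPM. This is a change of -0.40 and -0.63 per hour on the log2 scale against -2.37 and -2.52 in the second hour. Both were named for their large second-hour falls, and the 2 h libraries enter both windows. The part of this selection in the slowing was not tested. ZNF574 was at 3.31, 3.29 and 2.69 CPM at 4 h, about where it had been at 2 h (2.88, 3.74 and 2.61 CPM). Other genes kept falling. FLI1, which encodes the DNA-binding part of the Ewing sarcoma fusion, went from 71.4, 73.7 and 70.8 CPM at 1 h to 52.2, 50.5 and 49.4 CPM at 2 h and 20.2, 24.8 and 16 CPM at 4 h, and its reads cannot be divided here between FLI1 and a fusion transcript. NEAT1 rose between 2 and 4 h, to 173, 141 and 197 CPM, and MALAT1 to 165, 236 and 241 CPM. The comparisons of 1 h with 0 h and of 4 h with 2 h share libraries with the second-hour comparison. Without replicate 2 the numbers above and below were 365 and 81, without replicate 3 they were 347 and 8, and without the replicate block 178 and 0.

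**Figure D4:**
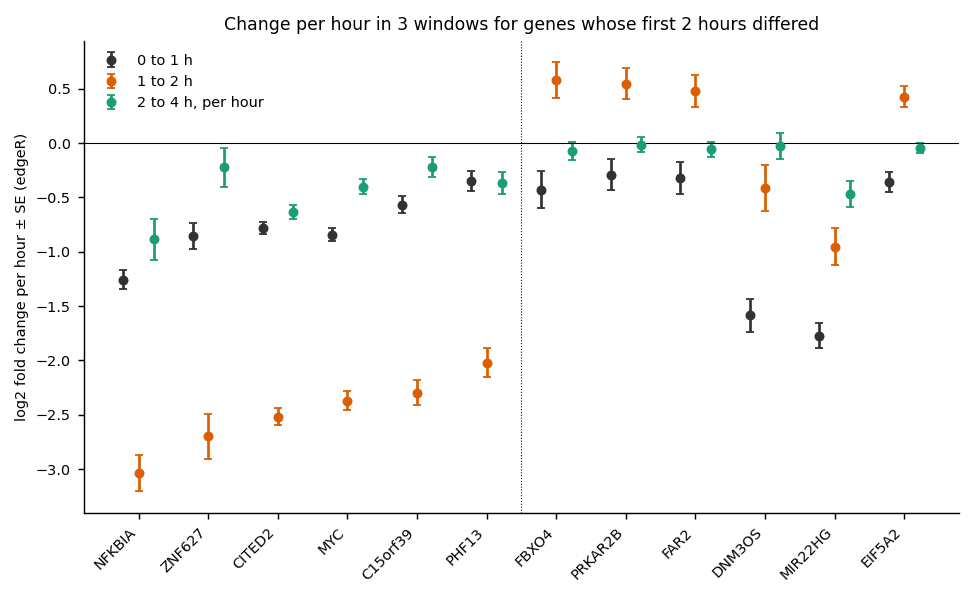
Log2 fold change per hour with its SE from edgeR (vertical axis) in the windows 0 to 1 h, 1 to 2 h and 2 to 4 h, for 12 genes. They are the 6 at each end of the difference between the first and second hour, among genes that passed and averaged at least 50 counts. The 6 genes on the left have second-hour values between -3.04 and -2.02 with milder changes before and after, and the 6 on the right have first-hour values below those of the second hour.

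Transcript features differed between genes that fell and genes that rose, and are described here without a test. Genes that rose also had higher counts, with a median of 1216, against 261 among genes that fell and 212 among the rest. The part of depth in the differences below was not tested. The median transcript was 4248 bases long among genes that fell, 2626 among those that rose and 3341 among the rest, and the 3′ UTR was 1929, 993 and 1374 bases long. The median number of ATTTA pentamers in the 3′ UTR was 4, 2 and 2, and per kilobase it was 2.12, 1.53 and 1.70. TTATTTATT was present in 14.1% of genes that fell, 6.68% of those that rose and 9.66% of the rest. The share of genes that fell was 11.9% with no ATTTA, 19.2% with 1 and 27.3% with 8 or more, while the share that rose went from 24.1% to 13.7%. By copies of TTATTTATT, the share that fell was 20.4% with 0, 30.4% with 1 and 28.1% with 2 or more. A longer 3′ UTR can hold more copies of either motif, and the part of its length in these shares was not tested. Leaving out the ZNF genes, the median lengths were 4267 and 2623 bases, and 14.4% and 6.69% held TTATTTATT.

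The shares also differed with exon number and length. Of 285 genes with 1 exon, 40.7% fell and 1.4% rose, and of 532 with 2 exons, 44.5% fell and 4.14% rose, against 16.3% and 18.1% of 5036 genes with more than 10 exons. By transcript length, 5.04% fell and 36% rose under 1000 bases, and from 4000 to 7999 bases 28.3% fell and 12.5% rose. Genes with few exons also had lower counts, with a mean count of 68.8 in the median 1-exon gene and 465 in the median gene with more than 10 exons, and the part of depth in these shares was not tested.

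GC content separated the hours more than the direction within the second hour. Genes whose second-hour change was below the first had a median GC of 52.6%, and those above it 43.6%. In transcripts with under 40% GC, the median log2 fold change was -0.08 from 0 to 1 h, 0.01 from 1 to 2 h and -0.04 from 2 to 4 h. In those with 60% GC or more it was 0.11, 0.02 and 0.19. The median of the second hour thus stayed near 0 in both, while the other windows differed between the classes. A base composition effect of library preparation was not tested.

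**Figure D5:**
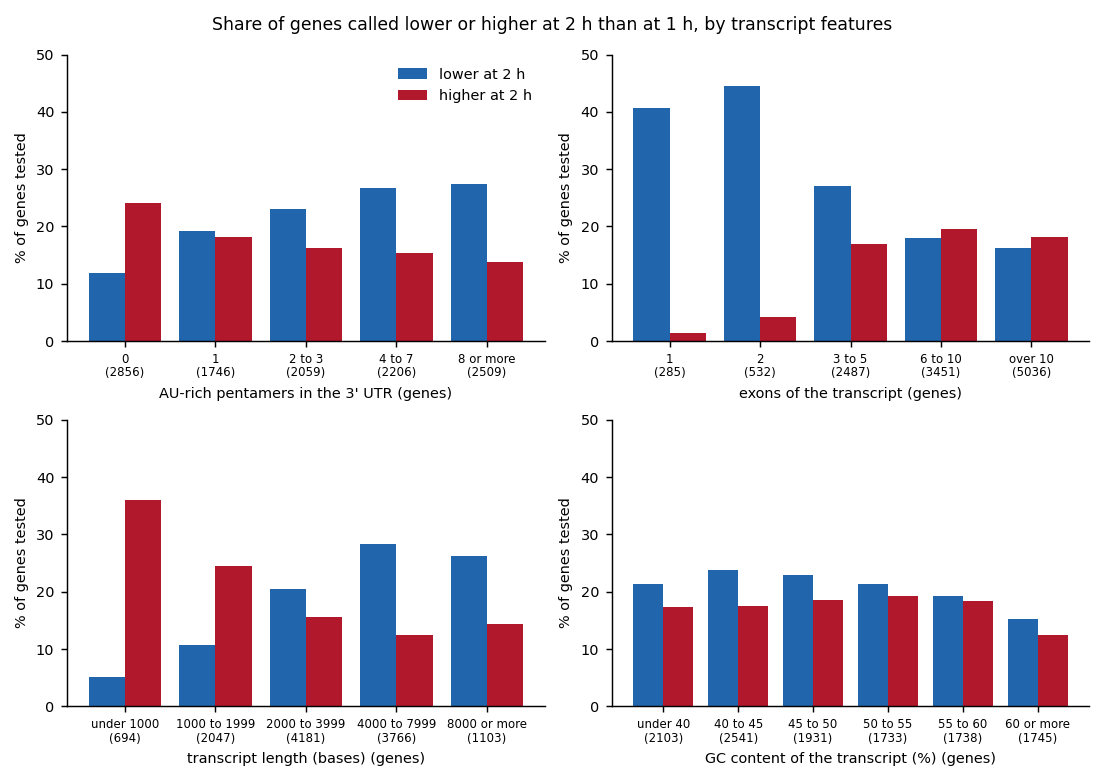
Share of tested genes (vertical axes, %) called lower (blue) or higher (red) at 2 h than at 1 h, by number of ATTTA pentamers in the 3′ UTR, number of exons, transcript length in bases and GC content in %, with the number of genes in each class in parentheses. The blue bars fall from 44.5% at 2 exons to 16.3% above 10 exons, and the red bars fall from 36% under 1000 bases to 12.5% at 4000 to 7999 bases.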

How the data were processed

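RNA-seq of A673 cells treated with 5 µM actinomycin D for 0, 1, 2 and 4 h was analysed, with 3 replicates per time and 9147018 to 11194705 counts per library, so precision is limited by counting at low levels. The deposited table holds raw counts, summed by the authors for each gene symbol. The submitters' notes name FastQC, STAR and hg19, whereas the counter, its treatment of paralogs, overlapping genes and strand, and the versions are not given in the sources used here. The paper's methods describe a general Salmon and tximport workflow that does not name these libraries. Groups and replicate numbers came from the sample titles, and 0 columns were left without a sample.

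Only genes averaging 10 counts or more were kept (12032). Counts were fitted with edgeR 4.0.16 in R 4.3.3 (TMM factors on library totals, glmQLFit and glmQLFTest) over all 12 libraries, with time as 4 groups and replicate number as a block. P-values were adjusted by Benjamini-Hochberg over all tested genes, with a threshold of 0.05. SE were derived from the F statistic. Contrasts were 2 h against 1 h, the second hour against the first, and the change per hour from 2 to 4 h against the second hour. The labels call the replicates biological and do not say that a number marks a shared culture or day. The block was kept because deviations from the group means correlated between same-numbered libraries in all 18 pairs (0.447 to 0.773, over 8856 genes averaging 100 counts or more). Between different numbers the range was -0.549 to 0.112. Subtracting the mean of 3 replicates itself lowers the latter values, so they are no separate support for the block.

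Named genes were the 12 largest falls and 12 largest rises that passed, had a mean of at least 50 counts and moved the same way in all 3 pairs. Also named were the 6 genes at each end of the difference between the hours that passed, with the same minimum count. Others were the extremes of each list or, for small lists, further members, and MYC, JUN, IER2, EGR1, GAPDH and ACTB. FLI1, NEAT1, CCND1, CCNB1, ZNF106 and ZNF664 were named after their values were seen. Members and lists were chosen with earlier results of these data known, so no list is independent support. Transcript features came from the GENCODE 44 canonical transcript on GRCh38, found for 11791 tested genes, 636 of them through a RefSeq synonym (GRCh38.p14). In simulated data on 12032 genes for this comparison, 50 of 50 genes were recovered at log2 changes of -2 and -1 each, 41 of 50 at -0.5 and 47 of 50 at 0.5, and 8 of 11832 unchanged genes were called. The changed genes were drawn only from those averaging at least 50 counts, and all genes had the same dispersion. Far fewer genes changed than were called in the data. Recovery at lower counts or with dispersions that vary by gene was not tested.

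Alternatives were library totals, DESeq2 1.42.0 size factors, GAPDH plus ACTB scaling, DESeq2's Wald test, limma-voom (limma 3.58.1), other count filters, no replicate block, only the libraries of a contrast, and leaving out each replicate. The other libraries of the study were not analysed here.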

Additional observations from a re-analysis of the deposited data

Results flagged for a closer look

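The difference between time windows was tested within 1 fit. For 818 genes the second-hour change was below the first-hour change, and for 504 it was above. For 207 genes the change per hour from 2 to 4 h was below the second-hour change, and for 664 it was above. Both tests used the libraries of shared times, so the windows are not independent of each other.

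The ends of the difference between the second and the first hour were taken among genes that passed and averaged at least 50 counts. At the low end were ZNF627 at -1.85, NFKBIA at -1.78, CITED2 at -1.73, C15orf39 at -1.73, PHF13 at -1.67 and MYC at -1.53, all on the log2 scale. CHAC1, with a mean of 21.8 counts, was below that minimum and had a difference of -2.66. At the high end were DNM3OS at 1.18, FBXO4 at 1.01, PRKAR2B at 0.84, MIR22HG at 0.82, FAR2 at 0.81 and EIF5A2 at 0.78. The levels at 1 h enter this difference with a double weight, and a library that stands apart at 1 h, such as replicate 3 for DNM3OS, moves it accordingly.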

How the results depend on the processing

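Of the 12 largest falls, all kept direction and threshold under each of the 12 alternatives (144 of 144 cases). The 12 largest rises kept them in 107 of 144 cases and lost the threshold in 37, namely 10 without the replicate block, 7 without replicate 3, 6 with GAPDH plus ACTB, 6 with DESeq2's Wald test, 3 each without replicates 1 and 2, and 2 with library totals. Scaling to GAPDH plus ACTB gave 3996 genes lower and 242 higher, and library totals 1010 higher. Leaving out the replicate block, with the pairing by number ignored, gave 1504 lower and 452 higher, 21 and 0 for the second hour below and above the first (edgeR), and 0 and 178 for the later change per hour below and above the second hour. Without the block, 1180 and 1018 genes differed at an unadjusted p under 0.05 in these tests of the second and the later hours. DESeq2's Wald test gave 371 below and 158 above for the second hour against the first, and 53 and 370 for the later hours, with 2100 and 467 genes left without an adjusted p. For the second hour above the first, library totals gave 201 and GAPDH plus ACTB 281. The later change below the second hour was seen for 322 genes with DESeq2 size factors, 342 with no count filter and 480 with only the libraries of the contrast. Leaving out each replicate in turn gave 1330 to 1569 genes higher at 2 h, 336 to 629 and 92 to 362 for the second hour below and above the first, and 8 to 149 and 347 to 528 for the later hours below and above. The causes were not tested.

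List counts in the leading direction moved as follows. Scaling to GAPDH plus ACTB gave 7 BCL2 family genes, 17 mitosis, 26 AU-rich element binding or deadenylation, 19 decapping or decay, 12 splicing regulator and 10 snoRNA host genes lower, and 1 named long noncoding RNA, 6 glycolytic, 39 ribosomal protein, 19 respiratory chain, 3 proteasome, 0 mitochondrial ribosomal and 1 solute carrier gene higher. No replicate block gave 3 mitosis, 2 decapping or decay, 1 splicing regulator, 8 P-TEFb and 3 snoRNA host genes lower, and 1 named long noncoding RNA, 7 glycolytic, 33 respiratory chain, 9 proteasome, 5 mitochondrial ribosomal and 3 solute carrier genes higher. DESeq2's Wald test gave 2 decapping or decay and 3 splicing regulator genes lower, and 1 named long noncoding RNA, 11 mitochondrial ribosomal and 15 solute carrier genes higher. Library totals gave 9 mitochondrial ribosomal and 9 solute carrier genes higher. Without single replicates the ranges were 3 to 5 for decapping or decay, 3 to 5 for snoRNA hosts, 1 to 3 for named long noncoding RNAs, 13 to 14 for mitochondrial ribosomal proteins and 12 to 19 for solute carriers.

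Directions turned for ACTB under library totals (-0.00196) and GAPDH plus ACTB (-0.0704), for EIF2AK4 (-0.0138), CNOT1 (-0.0211), SRPK1 (-0.00733) and RPL23A (-0.011) under GAPDH plus ACTB, and for DNM3OS without replicate 3 (-0.612 to 0.043 over the left-out replicates). The turn of ACTB under GAPDH plus ACTB follows from its part in that reference. Over all named genes and alternatives from 1 to 2 h, 2127 values kept direction and threshold, 228 lost the threshold and 5 gained it. At these depths, genes near the minimum count could not show changes as small as those of the ribosomal proteins.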
